A study of Mus musculus with 6 samples.

Results

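Genes that control plasminogen activation and clotting were followed in the lungs of mice given the complement protein C1q. They were taken by name from the deposited table: the protease inhibitors Serpinb2 and Serpine2, the plasminogen activators Plau and Plat, the urokinase receptor Plaur, the clotting initiator F3 and the anticoagulant receptor Thbd. All 7 of 7 were among the 26890 genes listed and among the 13473 that passed the filter on low counts. The lungs came from wild-type C57BL/6 mice. One group had received saline (n = 3) and the other C1q into the trachea at 20 µg per mouse (n = 3), and both were collected on day 3. Lungs were digested with Liberase and DNase, cells were kept from the middle layer of a Percoll gradient, and 5′-end libraries were made from their poly(A) RNA. The protocol text of all 6 samples describes instillation of C1q, so the treatment label alone sets the saline samples apart. Age and sex are not in the labels used here, and the labels do not say that each sample was a separate animal. The p-values therefore measure the spread between these samples, which may be technical.

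Plasmin, the enzyme that dissolves fibrin and cuts other matrix proteins, is made from the liver protein plasminogen by a pair of activators. Urokinase, encoded by Plau, works at the cell surface on its receptor Plaur, while tissue-type activator, encoded by Plat, works mainly on fibrin and is made by endothelium. Inhibitors of the serpin family restrain both: Serpinb2 encodes PAI-2, found in activated macrophages, and Serpine2 encodes protease nexin-1, which also blocks thrombin and is made by fibroblasts. Clotting starts when tissue factor, encoded by F3, meets factor VII, and thrombomodulin, encoded by Thbd on the endothelial surface, turns thrombin into an activator of the anticoagulant protein C.

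The reads of a 5′-end library are meant to start near where transcription starts, so the DNA just before the start is shown for the members with a RefSeq promoter. That held for 4 of 7 (Serpinb2, Serpine2, Plaur and F3). The 250 bases before each start were taken on GRCm38.p6, on the plus strand for Serpinb2 (chr1:107511173-107511422), Plaur (chr7:24462233-24462482) and F3 (chr3:121723287-121723536) and on the minus strand for Serpine2 (chr1:79858666-79858915). Capitals mark matches on either strand to the AP-1 motif TGAGTCA, the TATA motif TATAAA and the GC box GGGCGG, and neighbouring GC boxes can overlap.
Serpinb2: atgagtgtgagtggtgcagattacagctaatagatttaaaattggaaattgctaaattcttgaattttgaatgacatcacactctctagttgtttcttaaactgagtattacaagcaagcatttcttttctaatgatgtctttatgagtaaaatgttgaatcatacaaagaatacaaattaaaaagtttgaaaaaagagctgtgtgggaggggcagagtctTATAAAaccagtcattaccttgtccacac
Serpine2: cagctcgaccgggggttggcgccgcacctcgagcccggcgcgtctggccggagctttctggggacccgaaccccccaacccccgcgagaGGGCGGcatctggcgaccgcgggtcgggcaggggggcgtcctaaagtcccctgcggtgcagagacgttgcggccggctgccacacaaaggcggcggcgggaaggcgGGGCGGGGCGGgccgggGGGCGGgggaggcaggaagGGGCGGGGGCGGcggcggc
Plaur: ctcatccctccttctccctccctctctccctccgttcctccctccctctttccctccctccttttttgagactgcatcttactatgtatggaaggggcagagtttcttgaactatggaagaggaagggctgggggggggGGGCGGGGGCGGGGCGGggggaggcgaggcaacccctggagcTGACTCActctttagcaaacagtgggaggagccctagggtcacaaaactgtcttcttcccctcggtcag
F3: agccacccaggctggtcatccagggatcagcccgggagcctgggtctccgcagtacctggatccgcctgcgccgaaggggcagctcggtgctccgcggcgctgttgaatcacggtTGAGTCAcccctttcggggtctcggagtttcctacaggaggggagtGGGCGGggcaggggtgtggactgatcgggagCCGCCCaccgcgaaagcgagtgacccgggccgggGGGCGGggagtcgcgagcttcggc

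These windows differed in composition. Serpinb2 was 32.4% G and C with 0 CpG, a share below which 2.6% of 32851 RefSeq promoters lay, and it held 1 TATA motif starting 29 bases before the start. A RefSeq start of Serpinb2 further downstream shares that motif. Serpine2 was 78.8% G and C with 34 CpG and 6 GC boxes, above 98.3% of promoters. Its RefSeq start, at 79858665, lies inside the gene span of GENCODE M21, which on the minus strand begins at 79861180. The window shown for Serpine2 is therefore within that annotated gene. The AP-1 motif occurred once in Plaur, 69 bases before the start, and once in F3, 135 bases before it, and each of these windows had 3 GC boxes. Over all promoters 4.46% held the AP-1 motif, 12.4% the TATA motif and 32.7% a GC box. The NF-kB motif had no match in these 4 windows and occurred in 7.25% of promoters. These are matches of letters, and binding was not measured.

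Serpinb2 had the largest difference among the members, with about 5 times the transcript level after C1q, and Serpine2, Plaur and Plat were higher by smaller amounts. Plau was high in 1 C1q library, F3 differed little, and the group means of Thbd were almost equal. With edgeR's quasi-likelihood test and Benjamini-Hochberg adjustment over all genes, 0 of the 7 members passed an adjusted p of 0.05, where 4 of 13473 genes (0.0297%) did. With saline replicate 1 left out that count was 0, and with saline replicate 3 left out it was 10. Omitting C1q replicate 1 or 2 left 1 or 2 calls. At an unadjusted p under 0.05, 3 members were higher (Serpinb2, Serpine2 and Plaur) and 0 lower, against 4.22% and 3.94% of all genes. All C1q libraries lay above all saline libraries for 4 members (Serpinb2, Serpine2, Plaur and Plat), against 8.12% of all genes, and below them for 0 members, against 5.96%. With C1q replicate 2 left out, 2 members (Serpinb2 and Serpine2) had an unadjusted p under 0.05 and 4 did not overlap. With C1q replicate 1 left out, 3 had such a p (Serpinb2, Serpine2 and Plau) and 5 did not overlap. Shares over all genes were not counted for these 2 fits. Groups separate more easily with fewer libraries, so these counts cannot be set against the 8.12% and 4.22% of the full fit. The median log2 fold change of the 7 was 0.41, against -0.01 over all genes tested. The members were named with earlier results of these data known, so these shares carry no independent weight. In such bulk RNA, more cells of a type and more transcript per cell cannot be told apart.

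**Figure D1:**
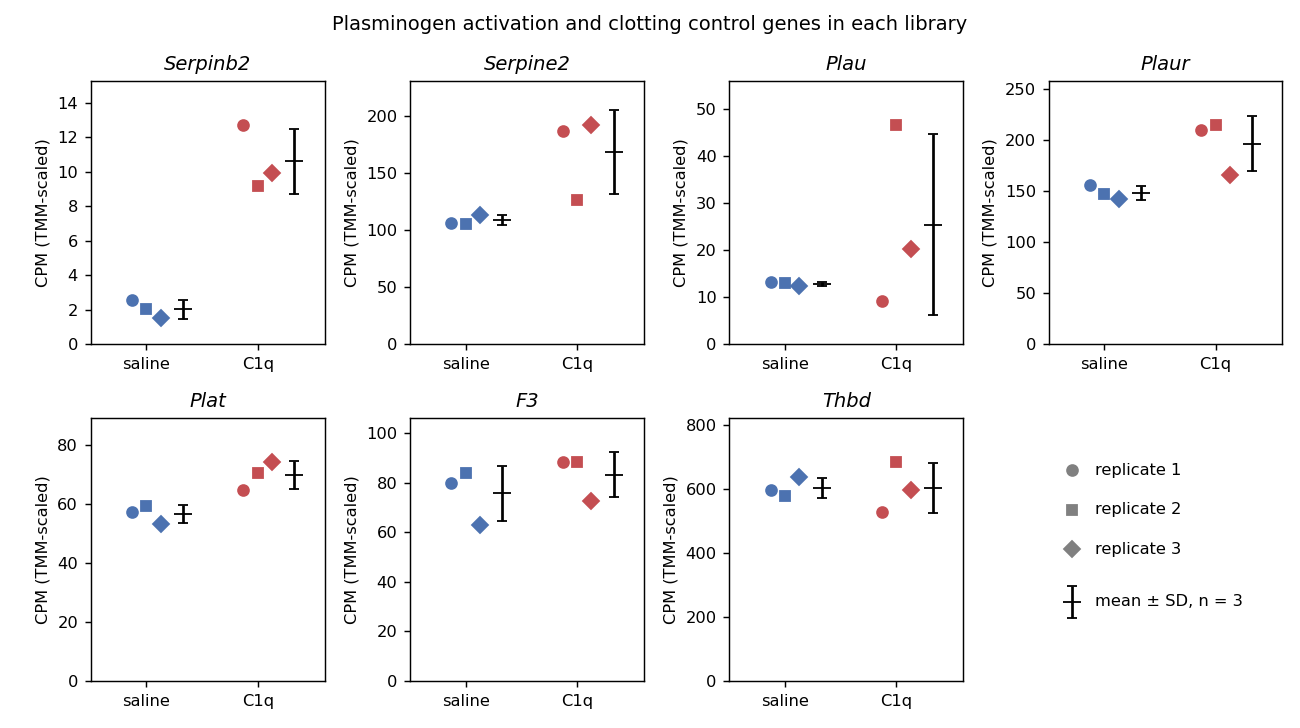
Level of each gene in every library, in TMM-scaled CPM (linear axes from 0), for saline and C1q libraries, with mean ± SD (n = 3). Serpinb2, Serpine2, Plaur and Plat do not overlap between groups, while 1 C1q library of Plau stands at 46.6 CPM. The group means of Thbd are almost equal, and its C1q libraries are more spread than its saline libraries.

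Among the inhibitors, Serpinb2 gave 8, 5 and 4 counts in saline replicates 1 to 3 and 46, 26 and 22 counts in C1q replicates 1 to 3. Scaled to CPM, that is to counts per 1000000 of the TMM library size, these were 2.57, 2.02 and 1.49 CPM in saline and 12.7, 9.17 and 9.93 CPM in C1q. The lowest C1q library was thus well above the highest saline library, although the saline values lay close to the 0.83 to 1.35 CPM that 3 counts are worth. The log2 fold change was 2.36 ± 0.38 (SE), or 5.12-fold with a 95% interval of 2.87 to 9.12. It ranked 8 of all genes tested by p-value and missed the threshold (adjusted p = 0.118). It passed with DESeq2 (adjusted p = 0.0185), which called 0.2% of its genes, and with edgeR with no filter on low counts (adjusted p = 6.48e-05), which called 1.39%. Leaving out any 1 library kept the log2 fold change of Serpinb2 between 2.18 and 2.58.

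Serpinb2 lies on chromosome 1 (107511423 to 107535478, plus strand, 8 exons) and shares 6476 bases with Serpinb10 on the same strand, annotated as a polymorphic pseudogene. The sources used here do not say how reads in the shared part were assigned. Serpinb10 itself gave 8, 9 and 3 counts in saline and 9, 2 and 2 in C1q, so it did not follow the C1q libraries upward as Serpinb2 did. The neighbouring inhibitor gene Serpinb8 had a log2 fold change of 0.49 ± 0.30 with overlapping groups. Both neighbours were looked up after the values of Serpinb2 had been seen.

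Macrophages and mesothelium can both hold Serpinb2. The 8 macrophage markers summed to 363 to 602 CPM in saline and 460 to 564 CPM in C1q. The 6 mesothelial markers summed to 186 to 269 CPM in saline and 233 to 333 CPM in C1q. Most of that sum was Krt19, with means of 149 of 241 CPM in saline and 185 of 282 CPM in C1q. Per 100 counts of the macrophage markers, Serpinb2 gave 0.34 to 0.54 counts in saline and 1.63 to 2.35 in C1q, and per 100 counts of the mesothelial markers 0.75 to 0.96 and 3.27 to 4.26. Neither ratio overlapped between the groups. Marker by marker the mesothelium was uneven, with Msln at a log2 fold change of 1.03 ± 0.32 and Upk3b at -0.89 ± 0.37, and Wt1 had 0 counts in 2 libraries.

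Serpine2 stood at 106, 105 and 113 CPM in saline and at 187, 126 and 192 CPM in C1q. The saline libraries were close to each other, with a coefficient of variation of 3.95%, and C1q replicate 2 was the lowest of its group at 126 CPM, still above all saline libraries. The log2 fold change was 0.63 ± 0.18 (adjusted p = 0.472), or 1.55-fold with a 95% interval of 1.18 to 2.04. Without C1q replicate 2 it was 0.81. With all libraries, edgeR and no filter on low counts, a fit that called 1.39% of its genes, Serpine2 passed (adjusted p = 0.0365). With DESeq2 it did not (adjusted p = 0.345). Serpine2 lies on chromosome 1 (79794197 to 79861180, minus strand, 9 exons).

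The 3 collagen genes among the 8 fibroblast markers were also lowest in C1q replicate 2, but 0 of the other 5 were, and Pdgfra, Dpt and Pi16 were highest there. Col1a1 was at 390, 265 and 330 CPM and Col3a1 at 875, 568 and 981 CPM in C1q replicates 1 to 3, against saline maxima of 208 and 430.3 CPM. All 8 fibroblast markers had a higher mean in C1q, 0 of them past the adjusted threshold, and their sum was 1420 to 1639 CPM in saline and 2304 to 2789 CPM in C1q. Relative to that sum, Serpine2 gave 6.63, 7.41 and 6.91 counts per 100 marker counts in saline and 6.69, 5.47 and 6.90 in C1q, with no separation of the groups. Without the 3 collagen genes the markers gave 11.9, 12.8 and 15.3 in saline and 17.7, 11.4 and 19.3 in C1q, again overlapping. Of the 5 markers that are not collagens, 4 lay above saline in every C1q library: Pi16 (log2 fold change 0.66 ± 0.21), Clec3b (0.53 ± 0.17), Dpt (0.48 ± 0.16) and Tcf21 (0.24 ± 0.14). Pdgfra overlapped, at 0.08 ± 0.15. The part of fibroblast number in the Serpine2 difference was not tested.

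**Figure D2:**
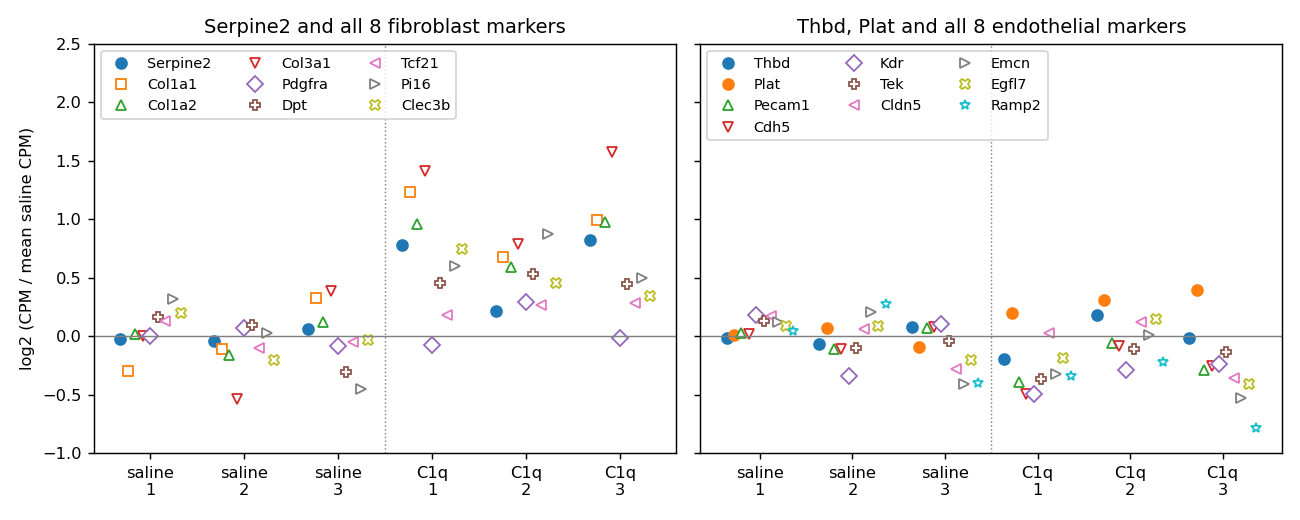
Level of Serpine2 beside all 8 fibroblast markers (left) and of Thbd and Plat beside all 8 endothelial markers (right) in each library, as log2 of CPM over the mean saline CPM; filled circles are the clotting genes and open symbols the markers. In C1q replicate 2, Serpine2 and the 3 collagens are lowest of the 3 C1q libraries while Pdgfra, Dpt and Pi16 are highest, and Thbd and 7 of 8 endothelial markers are highest.

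Of the activators, Plau was the least even gene of the set. It stood at 13.18, 12.95 and 12.33 CPM in saline, a coefficient of variation of 3.45%, and at 9.13, 46.6 and 20.3 CPM in C1q, a coefficient of variation of 75.9%. One C1q library was therefore below every saline library and the other two above them. The log2 fold change was 0.97 ± 0.47 (adjusted p = 0.609), with a 95% interval from -0.07 to 2.00 (0.95-fold to 4.01-fold). It was 0.16 without C1q replicate 2 and 1.40 without C1q replicate 1 (unadjusted p = 0.00278, adjusted p = 0.854 with edgeR), and limma-voom gave 0.60. With edgeR and no filter on low counts, a fit that called 1.39% of its genes, Plau passed (adjusted p = 0.0127). It did not pass with DESeq2 (adjusted p = 0.942) or limma-voom (adjusted p = 0.776). Plau lies on chromosome 14 (20836660 to 20843385, plus strand, 11 exons).

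That library also stood apart for other genes. Of 10342 genes with a mean of at least 10 CPM, 36 were in C1q replicate 2 at 2 or more times the level of any other library, a rule chosen after the values had been seen. The same count was 153 for saline replicate 2, 115 for saline replicate 3, 1 for C1q replicate 1 and 0 for the other two. Plau was one of the 36, at 2.29 times the next library. In 27 of the 36 the next highest library was C1q replicate 1, whereas for Plau it was C1q replicate 3 and C1q replicate 1 was the lowest of all 6. Whether the high Plau value shares its origin with those of the other genes was not tested.

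Plat was more even. It stood at 57.2, 59.5 and 53.4 CPM in saline and at 65.0, 70.5 and 74.5 CPM in C1q, so that the groups did not overlap but lay close together. The log2 fold change was 0.30 ± 0.14 (adjusted p = 0.606), or 1.23-fold with a 95% interval of 0.99 to 1.53. Leaving out any 1 library gave 0.26 to 0.35. Plat lies on chromosome 8 (22757727 to 22782844, plus strand, 14 exons).

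Plaur, the receptor that holds urokinase at the cell surface, was at 155, 147 and 142 CPM in saline and at 209, 214.5 and 165 CPM in C1q. C1q replicate 3 was nearest to the saline range, at 165 against a saline maximum of 155 CPM. The log2 fold change was 0.41 ± 0.15 (adjusted p = 0.598), or 1.33-fold with a 95% interval of 1.05 to 1.68. It was 0.34 without C1q replicate 2 and 0.36 without C1q replicate 1, and in both fits its unadjusted p no longer lay under 0.05. Counts of Plaur per count of Plau, which are not corrected for transcript length, were 11.8, 11.4 and 11.5 in saline and 22.9, 4.61 and 8.13 in C1q. The ratio was highest in the C1q library where Plau was lowest (9.13 CPM) and lowest where Plau was highest (46.6 CPM). In saline it rests on 41, 32 and 33 counts of Plau, so its evenness there cannot be read as a fixed relation. Plaur lies on chromosome 7 (24462484 to 24475968, plus strand, 7 exons).

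Myeloid cells are a known source of Plaur. Neutrophil markers summed to 52.7 to 98.0 CPM in saline and 65.5 to 113 CPM in C1q, with Ly6g at 0 counts in 5 of 6 libraries, and monocyte markers to 166 to 200 and 194 to 238 CPM. Both ranges overlapped between groups. Relative to 100 counts of the macrophage markers Plaur gave 32.5, 24.5 and 39.0 counts in saline and 38.5, 38.1 and 36.0 in C1q, which overlap too. The part of myeloid cell number in the Plaur difference was not tested.

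**Figure D3:**
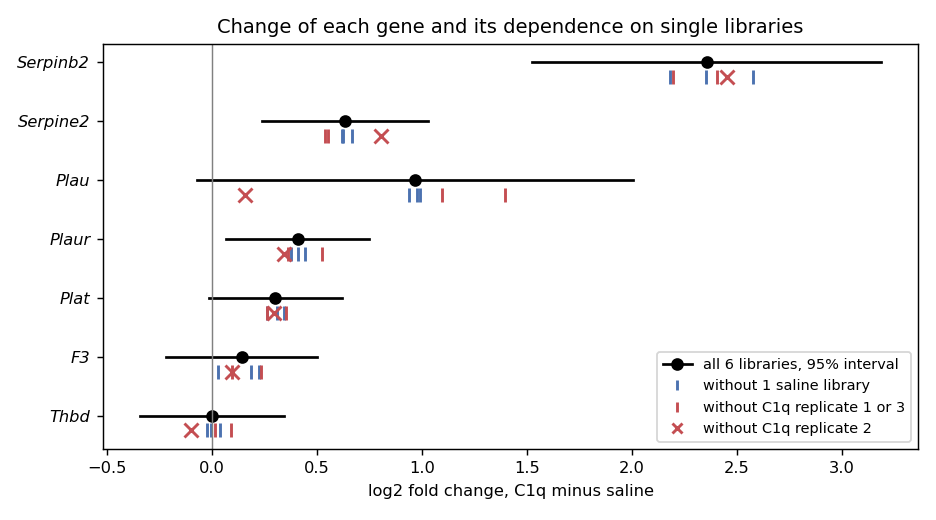
Log2 fold change of each gene (C1q minus saline) with all 6 libraries and its 95% interval (black), and the value with each library left out in turn (ticks and crosses). Serpinb2 stays between 2.18 and 2.58, while Plau falls to 0.16 without C1q replicate 2.

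F3, the tissue factor gene, was at 80.0, 83.8 and 63.1 CPM in saline and at 88.5, 88.5 and 72.7 CPM in C1q. The groups overlapped, since C1q replicate 3 was below saline replicates 1 and 2. The log2 fold change was 0.14 ± 0.16 (adjusted p = 0.819), and the 95% interval of 0.86-fold to 1.42-fold spans both directions. It was 0.03 without saline replicate 3 and 0.23 without C1q replicate 3. F3 lies on chromosome 3 (121723537 to 121735048, plus strand, 6 exons).

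Thbd, the thrombomodulin gene, was at 596, 576 and 636 CPM in saline and at 526, 685 and 596 CPM in C1q. The C1q libraries held both the lowest and the highest of the 6 values. Group means were 603 ± 30.3 and 602 ± 79.4 CPM (SD, n = 3 each), a log2 fold change of -0.0013 ± 0.16 (adjusted p = 0.999) with a 95% interval of 0.79-fold to 1.27-fold. Its sign changed in 5 of 13 alternatives, between -0.10 and 0.09, so no direction can be given. Thbd is a gene of 1 exon on chromosome 2 (148404466 to 148408188, minus strand).

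Markers of endothelium, which makes thrombomodulin and tissue-type activator, were lower on average in the same C1q libraries. All 8 had a lower mean, 0 of them past the adjusted threshold, with a median log2 fold change of -0.25, and their sum was 3457 to 4024 CPM in saline and 2934 to 3690 CPM in C1q. Per 100 counts of these markers Thbd gave 14.8, 15.4 and 18.4 counts in saline and 16.6, 18.6 and 20.3 in C1q, which overlap. Plat gave 1.42, 1.59 and 1.54 counts in saline and 2.06, 1.91 and 2.54 in C1q, which do not overlap. Among the C1q libraries Thbd was highest in replicate 2, as were 7 of the 8 markers, and lowest in replicate 1, as were 4 of them (Pecam1, Cdh5, Kdr and Tek). The other 4 (Cldn5, Emcn, Egfl7 and Ramp2) and the marker sum were lowest in replicate 3. The part of endothelial cell number in the Thbd and Plat values was not tested.

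The wider system was read from 42 other genes, of which 37 were listed and 19 were tested. With edgeR, 0 of the 19 passed the adjusted threshold; 5 were higher and 0 lower at an unadjusted p under 0.05, against the 4.22% and 3.94% of all genes given above. Their median log2 fold change was 0.18. Plasminogen itself (Plg) had 1 count in 1 library and 0 in the other 5. The liver markers Alb and Apoa1 stood at 2.71 CPM or less in every library.

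Among 7 tested partners of plasminogen, which are surface and clearance receptors, the median log2 fold change was 0.05. Anxa2, a surface docking protein for plasminogen and Plat, was at 435, 365 and 360 CPM in saline and at 574, 489 and 438 CPM in C1q (log2 fold change 0.37 ± 0.16, adjusted p = 0.602). The plasminogen receptor gene Plgrkt was at 0.25 ± 0.20 and Mrc2, a collagen receptor that binds the urokinase receptor complex, at 0.24 ± 0.18. S100a10, the partner of Anxa2, was at -0.24 ± 0.26.

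Among the clotting factors, all 5 of 5 tested had higher means in C1q, with a median log2 fold change of 0.72. Over all genes tested, 6500 of 13473 had a higher mean. Factors below the count filter went both ways, and Klkb1, the plasma kallikrein gene, had means of 1.22 CPM in saline and 0.82 CPM in C1q. F5, the cofactor of activated factor X, was at 4.82, 4.86 and 3.74 CPM in saline and at 11.34, 7.41 and 13.99 CPM in C1q, with a log2 fold change of 1.27 ± 0.35 (adjusted p = 0.438). F10, which encodes factor X, was at 11.3, 12.1 and 12.7 CPM in saline and at 24.1, 15.5 and 21.2 CPM in C1q, with a log2 fold change of 0.76 ± 0.24 (adjusted p = 0.522). Both sets of libraries separated completely. F7, the partner of tissue factor, was at 27.3, 32.0 and 16.1 CPM in saline and at 50.3, 29.6 and 43.8 CPM in C1q, where replicate 2 fell inside the saline range (log2 fold change 0.72 ± 0.27, adjusted p = 0.598). F13a1, which crosslinks fibrin, was at 0.18 ± 0.31 and the platelet adhesion gene Vwf at 0.09 ± 0.15. The 7 platelet markers summed to 25.8 to 31.2 CPM in saline and 19.4 to 22.6 CPM in C1q. Only 3 of them passed the count filter, and these went both ways. Pf4 was lower, at -0.76 ± 0.36 (adjusted p = 0.606 with edgeR), and Ppbp (0.09 ± 0.42) and Itga2b (0.03 ± 0.47) were slightly higher.

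Anticoagulant genes other than Thbd were also higher on average, 5 of 5 tested, with a median log2 fold change of 0.26. Tfpi2, an inhibitor of plasmin and of tissue factor with factor VII, was at 4.18, 5.67 and 3.36 CPM in saline and at 10.2, 11.3 and 9.48 CPM in C1q. Every C1q library was above every saline library, at 1.23 ± 0.33 (adjusted p = 0.410). Tfpi, the main inhibitor of tissue factor, was at 0.18 ± 0.15, the protein C cofactor Pros1 at 0.26 ± 0.15 and the endothelial protein C receptor gene Procr at 0.27 ± 0.33. Of the protease-activated receptors through which thrombin and related proteases signal, 2 of 4 were tested: F2r was at 0.14 ± 0.14 and F2rl1 at 0.07 ± 0.24.

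**Figure D4:**
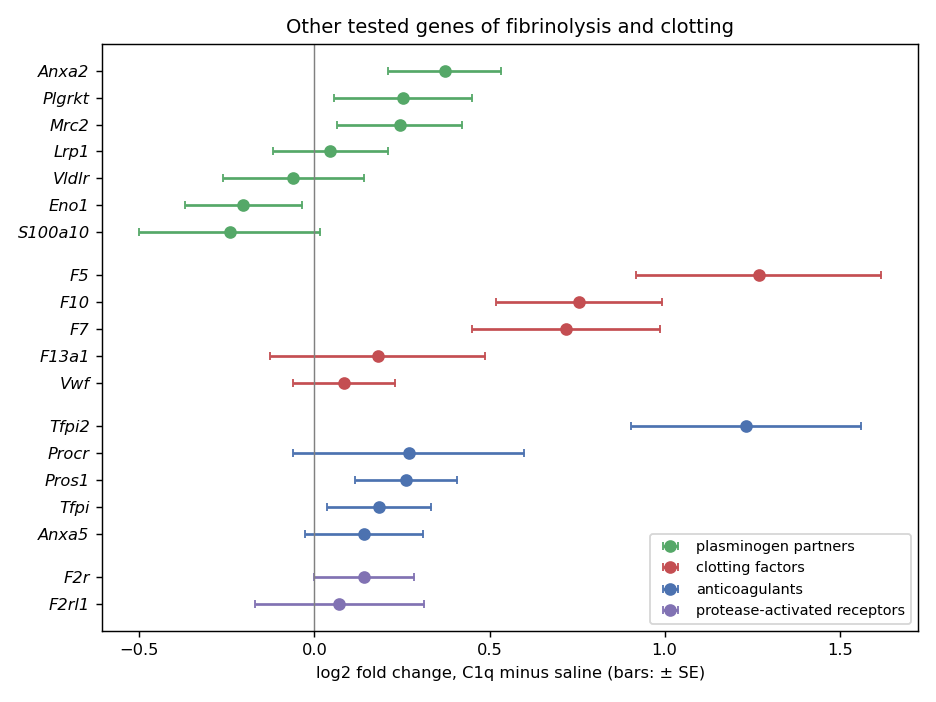
Log2 fold change (C1q minus saline) ± SE of the 19 other genes of fibrinolysis and clotting that were tested, grouped by role. F5 and Tfpi2 lie furthest to the right, at 1.27 and 1.23, while S100a10 lies furthest to the left, at -0.24.

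Across libraries the members did not share 1 pattern. Serpinb2, Serpine2 and Plaur were highest in different C1q libraries (replicates 1, 3 and 2). The order is not settled for Serpine2 (187 and 192 CPM in replicates 1 and 3) or Plaur (209 and 214.5 CPM in replicates 1 and 2). Plau and Thbd were both highest in replicate 2 and lowest in replicate 1. Over all 6 libraries, Pearson's r of log2 CPM for Serpinb2 was 0.853 with Serpine2, 0.866 with Plaur and 0.876 with Plat. With F3, Plau and Thbd it was 0.515, 0.339 and -0.185, and Serpine2 with Plaur gave 0.527. The difference between the groups enters these values. The genes most like each member over the 6 libraries, by Pearson's r of log2 CPM among 10341 genes, were Ptpn23 for Serpine2 (0.994), Eif2ak1 for Plau (0.995), Rbmxl1 for Plaur (0.982), Itih4 for Plat (0.993), Ppp1ca for F3 (0.999) and Synj2 for Thbd (0.994). Next came Epn3 and Ppp1r21 for Serpine2, Kif3b and Amd2 for Plau, Trim27 and Vdac3 for Plaur, Pdha1 and Ier5 for Plat, Gstm2 and Naxd for F3, and Frmd6 and Kif13a for Thbd, with r from 0.979 to 0.994. For a gene at the median of all those searched, the nearest gene had r = 0.992, so such values are usual with 6 libraries and single out no partner. Serpinb2 was below the 10 CPM set for this search.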

How the data were processed

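RNA of digested lung cells was measured in 6 libraries, 3 saline and 3 C1q, grouped by their treatment label and numbered in order of deposition, so the numbers pair nothing. The values deposited by the authors are raw counts per gene symbol. The submitters' processing notes record GRCm38 as the build and list Bowtie2 2.4.2 and cutadapt 2.1.0. The sources used here do not give the counting step, its strand setting or the use of molecular identifiers. Totals were 2227619 to 3650793 counts per library. Each library was counted as 1 sample. Counts of any 2 libraries differed beyond counting noise (15 pairs, within and between groups, chi-square per degree of freedom 5.08 to 16.5). Repeat libraries of 1 animal can differ in this way too, so this does not show that the samples were separate animals.

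Genes were filtered with filterByExpr, given TMM scaling and fitted across all genes with edgeR 4.0.16 (glmQLFit and glmQLFTest, two-sided), with Benjamini-Hochberg adjustment and a threshold of 0.05. Standard errors come from the fold change and the F statistic, and 95% intervals from these and the test's degrees of freedom. CPM are TMM-scaled counts. The test was checked on simulated data. Alternatives were other scalings and filters, DESeq2 1.42.0, limma-voom (limma 3.58.1) and each library left out. Positions are from GENCODE M21 and promoters from RefSeq, both on GRCm38. All 7 members are named, with the 3 smallest p-values and preset genes of each context list, of which 1 is not reported here; S100a10 and the neighbours of Serpinb2 were picked once their values were known. The members and lists were chosen with earlier results of these data known.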

Additional observations from a re-analysis of the deposited data

How the results depend on the processing

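The direction held in all 13 alternatives for Serpinb2, Serpine2, Plau, Plaur, Plat and F3. For Thbd, whose main value lay near 0, it turned with no filter on low counts (0.033) and with DESeq2 (0.019). In these fits the median shift of log2 fold change over genes, relative to the main fit, was 0.033 and 0.02. The sign of Thbd also turned in 3 of the 6 fits that left out 1 library, which ranged from -0.10 to 0.088. In edgeR without the filter on low counts the calls were 158 genes higher and 215 lower, or 1.39% of 26890 genes. They included 3 members: Serpinb2 (2.39), Serpine2 (0.67) and Plau (1.00). DESeq2 called 35 higher and 1 lower, or 0.2% of 18028 genes, among them 1 member, Serpinb2 (2.4). Leaving out 1 library gave 0 to 9 genes higher and 0 to 1 lower, with 0 members called each time. The causes were not tested. No paired analysis was possible because the labels give the groups no shared replicate numbers. Depth limits Serpinb2 most, since its saline libraries held 4 to 8 counts.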
